A study of Bos taurus with 34 samples.

Results

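Small leucine-rich proteoglycans are secreted matrix proteins built around a stretch of leucine-rich repeats. The 8 genes described here are decorin (DCN), biglycan (BGN) and asporin (ASPN) of class I, lumican (LUM), fibromodulin (FMOD), PRELP and osteomodulin (OMD) of class II, and osteoglycin (OGN) of class III. They were chosen by gene symbol, and each was represented by its RefSeq transcript row with the highest mean count. All 8 had such a row, among 21541 genes with a row. The count of 1 transcript can miss reads shared with others and no transcript lengths were used, so levels are compared between libraries for the same gene and never between genes.

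As background, these proteins lie along collagen fibrils and set their spacing and diameter, and several hold growth factors such as TGF-beta in the matrix. Decorin and biglycan carry chondroitin or dermatan sulfate chains, lumican and fibromodulin carry keratan sulfate, and asporin carries no such chain. Their main sources in most organs are fibroblasts and other connective tissue cells. In the uterus of mice and humans, decorin and biglycan are known as stromal products.

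RNA came from the ampulla, the wide outer part of the oviduct, and from the endometrium, the lining of the uterus, of 5 adult Holstein heifers that had never calved. Ovulation was timed with a 5-day CIDR-Synch treatment, in which a vaginal insert releases progesterone, and all tissues were taken on day 2 after ovulation. The 7 groups were the ipsilateral and contralateral ampulla, the ipsilateral and contralateral upper uterine horn, the ipsilateral and contralateral mid horn, and the uterine body, where ipsilateral means the side of that ovulation. There were 5 heifers in each group but 4 in the ipsilateral upper horn (heifer 11110 is not analysed there), and the labels list the uterine body once per heifer. No untreated or non-ovulating animals were among the 34 libraries, and every heifer received the same treatment. The bulk samples were homogenised pieces, in which fewer cells of a type and less RNA per cell cannot be told apart.

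Depth per library lay between 11619486 and 30412782 counts (median 20610132). Levels are given in CPM, the usual unit of counts scaled to the library total. Markers set the regions apart as labelled. Ciliated cell markers summed to 918 to 1381 CPM in the ampulla against 52.1 to 356 CPM in the endometrium, and the uterine position genes HOXA10, HOXA11, HOXD10, HOXD11 and MSX1 to 1.76 to 29.1 CPM in the ampulla against 626 to 1514 CPM in the endometrium. Stromal markers other than proteoglycans and collagens summed to 22.7 to 66.9 CPM in the ampulla, where PDGFRA and PDGFRB were at 0, against 2978 to 11890 CPM in the endometrium, and epithelial markers summed to 5548 to 7403 CPM in the ampulla against 932 to 4020 CPM in the endometrium. The labelled ampulla libraries thus carried few transcripts of connective tissue, though PDGFRA averaged only 0.660 CPM in the endometrium too. PDGFRB had too few counts over all libraries to be tested. Endothelial markers summed to 0.131 to 1.27 CPM in the ampulla, with PECAM1, CDH5, CLDN5 and VWF at 0, against 368 to 952 CPM in the endometrium. CLDN5 averaged 72.5 CPM in the endometrium but VWF only 0.381 CPM. PECAM1 was at 0 in every uterine group but the ipsilateral mid horn, and CDH5 in the contralateral mid horn. Smooth muscle markers summed to 8.31 to 21.1 CPM in the ampulla, with ACTA2, MYH11, TAGLN and SMTN at 0, against 227 to 4637 CPM in the endometrium. In the endometrium ACTA2, TAGLN and SMTN averaged only 0.360, 0.649 and 0.344 CPM. MYH11 was also at 0 in the contralateral upper horn and in the mid horn of both sides. The marker sums thus differed between the regions compared below, and their part in the ampulla results was not tested. Leukocyte markers, with PTPRC and CD68 at 0 in the ampulla, summed to 13.6 to 35.9 CPM there and to 64.1 to 261 CPM in the endometrium. PTPRC and CD68 were also at 0 in the contralateral upper horn and in the mid horn of both sides. Cartilage, tendon and bone markers summed to 14.5 to 92.0 CPM in the ampulla, where TNMD, ACAN and COL2A1 were at 0, and to 21.1 to 66.4 CPM in the endometrium. TNMD averaged 26.4 CPM in the endometrium but ACAN only 0.203 CPM, and COL2A1 had too few counts over all libraries to be tested.

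In 3 libraries something stood apart. The mid-horn library from the contralateral side of heifer 10882 held 1271 CPM of oviduct epithelial markers, against 0.889 to 82.5 CPM in the other endometrial libraries. The upper-horn library from the contralateral side of heifer 11033 had counts in 16049 rows and the ampulla library from the contralateral side of heifer 11070 in 15773, against at least 19348 in every other library. The 18S ribosomal row took up to 23.5% of a library's counts, in the uterine body of heifer 11033. Without these 3 libraries no member's call changed.

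The ampulla and the endometrium differed in nearly the whole family. DCN, LUM, OMD and BGN had 0 counts in all 10 ampulla libraries, while OGN and ASPN had traces there. FMOD was present in every ampulla library at about 0.226 of its endometrial level. PRELP was the exception in direction, at 460 ± 136 CPM in the ampulla against 123 ± 28.4 CPM in the endometrium (mean ± SD over 5 heifers, each heifer's libraries averaged first). By edgeR's quasi-likelihood test with Benjamini-Hochberg adjustment, 6 of the 7 tested members were lower in the ampulla and 1 was higher. In the same comparison 64.9% of all 17241 tested rows were called, 35.6% lower and 29.4% higher. BGN failed the filter on low counts. DCN, LUM, OMD and ASPN passed it through their endometrial counts alone, which favours a lower call in the ampulla. Only OGN, FMOD and PRELP are therefore read against the shares of all rows called. OGN reached the filter's cutoff of 0.485 CPM in 4 ampulla libraries, the number needed, and FMOD and PRELP reached it in all 10.

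**Figure D1:**
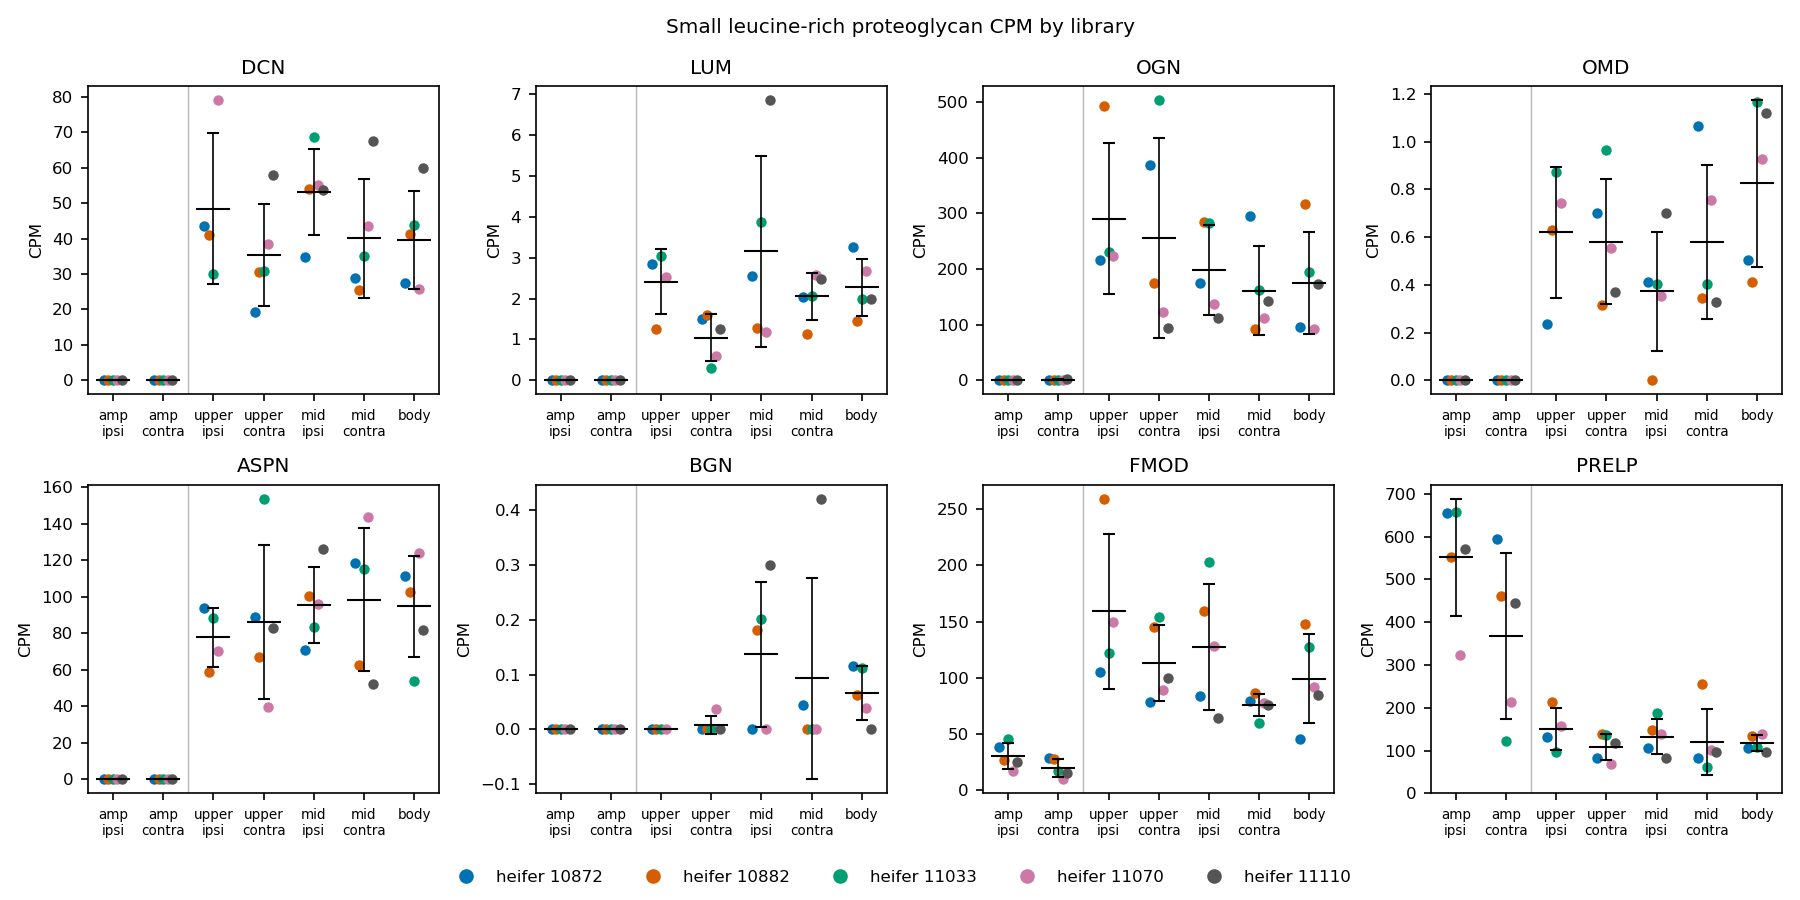
CPM (vertical axis, linear, with its own range for each gene) of the 8 genes in the 7 groups (horizontal axis: ampulla, upper horn, mid horn and uterine body, ipsilateral left of contralateral). Points are libraries coloured by heifer, and bars show the mean ± SD of the group. PRELP alone is higher in the ampulla, left of the grey line, while DCN, LUM, OMD and BGN are at 0 there.

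Decorin binds type I collagen, and mice without it have irregular fibrils and fragile skin. DCN had 0 counts in the ampulla on both sides. In the upper horn its CPM values, in the order of heifers 10872, 10882, 11033, 11070 and 11110, were 43.5, 41.1, 29.9 and 79.1 on the ipsilateral side (none for 11110) and 19.2, 30.5, 30.9, 38.4 and 58.1 on the contralateral side. The mid horn held 34.8, 54.1, 68.8, 55.03 and 53.7 CPM ipsilaterally and 28.9, 25.6, 35.0, 43.7 and 67.5 CPM contralaterally, and the uterine body 27.4, 41.3, 43.9, 25.7 and 59.9 CPM. All 24 endometrial libraries were thus above all 10 ampulla libraries. With 3 counts over the 10 ampulla libraries as the floor (0.0171 CPM, counting error only), DCN was at least 2527-fold lower in the ampulla than in the endometrium, where it averaged 43.1 ± 10.7 CPM (adjusted p = 4.62e-19, edgeR, lower in 5 of 5 heifers). DCN passed the filter through its endometrial counts alone, so its p-value and heifer count are descriptions only. A second DCN transcript row, with 2313 counts, also had 0 counts in the ampulla. It made up 5.78 to 14.4% of the counts of both rows in the endometrial libraries, with a median of 8.52%.

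Asporin binds collagen and calcium and restrains TGF-beta signalling. ASPN had 19 counts in all in the ampulla: 0.0525, 0.04998, 0.155, 0 and 0 CPM in heifers 10872, 10882, 11033, 11070 and 11110 on the ipsilateral side and 0.418, 0, 0, 0.319 and 0.129 CPM on the contralateral side. In the endometrium the lowest library held 39.4 CPM, the median 88.5 and the highest 153.5 CPM, so the regions did not overlap. ASPN averaged 0.112 ± 0.0843 CPM in the ampulla against 91.4 ± 7.95 CPM in the endometrium, with a log2 fold change of -9.81 ± 0.40 (SE; adjusted p = 1.29e-19, edgeR, lower in 5 of 5 heifers). ASPN too passed the filter through the endometrium alone, which makes its p-value and heifer count descriptions only. Of the 8 members it varied least between heifers: endometrial heifer means ran from 82.5 CPM in 10882 to 99.5 CPM in 11070.

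Biglycan, known as a ligand of TLR2 and TLR4 when it is released from the matrix, was barely counted. Its row, a predicted transcript, held 0 counts in the ampulla and 33 in the endometrium, spread over 10 of 24 libraries. RefSeq lists 2 transcripts of BGN, and the loss of reads that both share could not be measured from this table. By group, it averaged 0 CPM in the ipsilateral upper horn, 0.00737 ± 0.0165 CPM in the contralateral upper horn, 0.137 ± 0.133 and 0.0929 ± 0.184 CPM in the ipsilateral and contralateral mid horn, and 0.0659 ± 0.0492 CPM in the uterine body (SD, n = 4 in the first and 5 in the others). Against the same floor BGN was at least 4-fold lower in the ampulla than in the endometrium, at 0 against 0.0615 ± 0.0376 CPM, with no test, and no difference between uterine groups was detectable at this depth.

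Lumican is best known from the cornea, which turns cloudy in mice that lack it. LUM had 0 counts in the ampulla and 1150 in the endometrium, where every library had some: 0.290 CPM in the lowest, from 3 counts in the contralateral upper horn of heifer 11033, a median of 2.02 and 6.86 CPM in the highest. It was at least 127-fold lower in the ampulla than in the endometrium, which averaged 2.16 ± 0.514 CPM (adjusted p = 1.25e-11, edgeR, lower in 5 of 5 heifers). Osteomodulin, an acidic member first known from bone, had 301 counts, all of them endometrial. OMD was at least 37-fold lower in the ampulla than in the endometrium, which averaged 0.626 ± 0.179 CPM (adjusted p = 2.12e-08, edgeR, lower in 5 of 5 heifers). One endometrial library, the ipsilateral mid horn of heifer 10882, was at 0 for OMD, and its regions therefore touched. Because LUM and OMD passed the filter through the endometrium alone, their p-values and heifer counts are descriptions only.

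Fibromodulin guides collagen fibril growth and cross-linking and is abundant in tendon. FMOD stood at 37.98, 26.9, 45.3, 16.5 and 24.9 CPM in heifers 10872, 10882, 11033, 11070 and 11110 in the ipsilateral ampulla and at 28, 27.9, 17.2, 9.42 and 15.1 CPM in the contralateral ampulla. In the endometrium its lowest library, the body of heifer 10872, was at 44.9 CPM, the median at 95.4 and the highest, the ipsilateral upper horn of heifer 10882, at 259 CPM. The regions touched at that lowest library. FMOD averaged 24.9 ± 8.35 CPM in the ampulla against 110 ± 34.7 CPM in the endometrium, with a log2 fold change of -2.14 ± 0.20 (adjusted p = 3.55e-11, edgeR, lower in 5 of 5 heifers).

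PRELP has an N-terminus rich in proline and arginine that binds heparan sulfate, and it is known as a link between basement membranes and the connective tissue beneath them. In heifers 10872, 10882, 11033, 11070 and 11110 it stood at 656, 551, 658, 324 and 570 CPM in the ipsilateral ampulla and at 596, 462, 123, 214 and 445 CPM in the contralateral ampulla. The endometrium held 62.3 CPM in its lowest library, a median of 113 and 257 CPM in its highest. That highest library was the contralateral mid horn of heifer 10882, which also carried the oviduct epithelial markers, and the next highest held 212.5 CPM. Overlap with the endometrium came from 2 ampulla libraries, those of heifers 11033 and 11070 on the contralateral side. PRELP was higher in the ampulla in 5 of 5 heifers, by a log2 fold change of 1.87 ± 0.19 (adjusted p = 2.48e-10, edgeR), and by 2.01 without the 3 libraries that stood apart. Besides the epithelial markers, mesothelial markers summed higher in the ampulla, at 302 to 2612 CPM against 5.04 to 796 CPM in the endometrium, mostly from MSLN, which is also on the oviduct epithelial list. Of the other mesothelial markers tested, WT1 averaged 1.21 CPM in the ampulla against 0.189 CPM, while UPK3B was lower, at 3.88 against 6.95 CPM. Of the epithelial markers, CLDN4 and CDH1 (not called) were lower in the ampulla, at 56.5 and 158 CPM against 201 and 254 CPM. The part of either list in the PRELP result was not tested.

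FMOD and PRELP are neighbouring genes, and their counts in the same library gave a ratio that does not depend on library scaling. PRELP had 7.17 to 29.6 counts per FMOD count in the ampulla, with a median of 20.04, against 0.777 to 2.98 in the endometrium, with a median of 1.06. The ratios did not overlap, and the highest endometrial ratio was again that of the contralateral mid horn of heifer 10882. Because the transcripts differ in unknown length, the ratio compares regions and not the abundance of both genes.

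Osteoglycin, also called mimecan, is a keratan sulfate carrier of the cornea and takes part in fibril assembly elsewhere. OGN had 100 counts in the ampulla, at 0.263, 0.300, 0, 0.562 and 0.923 CPM in heifers 10872, 10882, 11033, 11070 and 11110 on the ipsilateral side and 0.261, 0.380, 0.328, 1.197 and 1.94 CPM on the contralateral side. The endometrial libraries held 91.9 CPM at the lowest, 175 at the median and 504 CPM at the highest, and did not overlap with the ampulla. OGN averaged 0.615 ± 0.534 CPM in the ampulla against 203 ± 70.4 CPM in the endometrium, with a log2 fold change of -8.40 ± 0.50 (adjusted p = 1.01e-14, edgeR, lower in 5 of 5 heifers). Wholly lower ampulla libraries, seen here for OGN and for DCN, LUM and ASPN, which had passed the filter through the endometrium, were found in 6.54% of all tested rows, and wholly higher ones in 5.12%.

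Along the uterus the family showed no called gradient. The comparison of the 3 uterine sites asks whether the lining differs along the path that an embryo takes after it leaves the oviduct. By edgeR's quasi-likelihood test, 0 of 7 tested members were called in the upper horn against the mid horn, where 0.0174% of all rows were called and the members' adjusted p ran from 0.790 to 0.987. None was called in the upper horn against the body either, with 0.0232% of rows called and adjusted p from 0.508 to 0.925. The mid horn against the body gave 4.45% of rows called and again 0 members, with adjusted p from 0.285 to 0.980. In these 3 comparisons 0 members had an unadjusted p under 0.05, and DESeq2's Wald test also called 0.

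Among the 7 tested members, the largest site differences by size were those of OMD and OGN. OMD averaged 0.620 ± 0.276 and 0.582 ± 0.263 CPM in the ipsilateral and contralateral upper horn, 0.374 ± 0.250 and 0.579 ± 0.324 CPM in the ipsilateral and contralateral mid horn, and 0.826 ± 0.349 CPM in the body (SD, n = 4 in the first, 5 in the others). Its log2 difference between mid horn and body was -0.82 ± 0.50 (SE), with an interval of 2 SE from -1.81 to 0.18. OGN averaged 291 ± 135 and 256 ± 180 CPM in the ipsilateral and contralateral upper horn, 198 ± 81.5 and 161 ± 80.2 CPM in the ipsilateral and contralateral mid horn, and 174 ± 91.8 CPM in the body. The upper-horn means were the highest and the body lay between both sides of the mid horn, but each mean was within 1 SD of the next. The OGN log2 difference between upper horn and body was 0.67 ± 0.46, with an interval of 2 SE from -0.24 to 1.59. Between upper and mid horn it was 0.60, and 0.27 without the 3 libraries that stood apart. PRELP group means were 150 ± 48.6 and 108 ± 31.3 CPM in the ipsilateral and contralateral upper horn, 133 ± 40.3 and 120 ± 77.7 CPM in the ipsilateral and contralateral mid horn, and 117 ± 18.7 CPM in the body. ASPN group means ran from 77.8 ± 16.3 CPM in the ipsilateral upper horn to 98.4 ± 39.2 CPM in the contralateral mid horn.

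**Figure D2:**
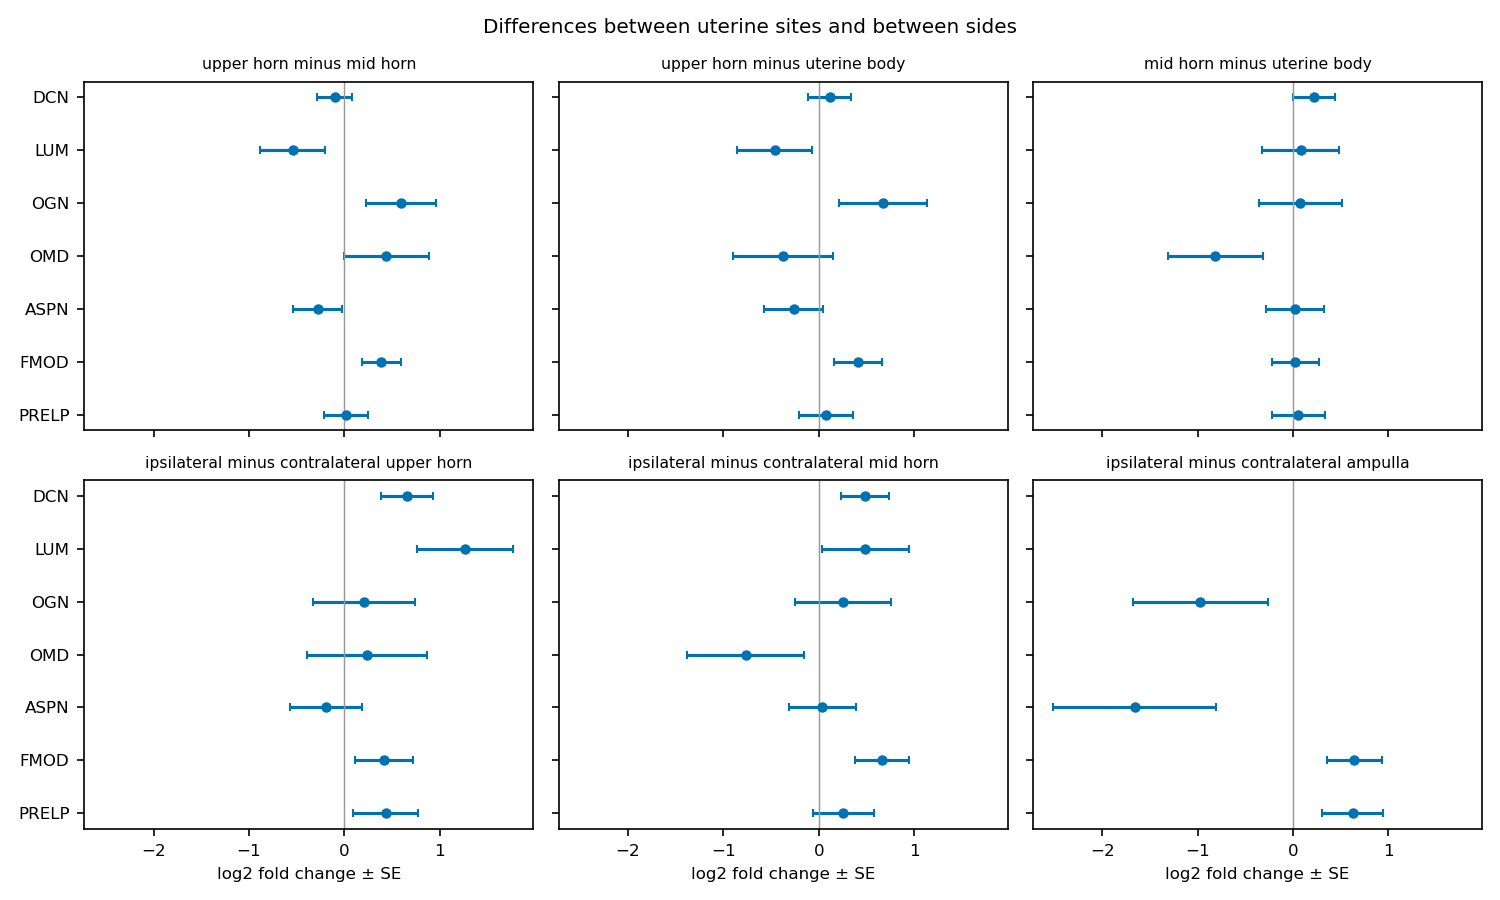
Log2 fold change (horizontal axis) of each tested member (rows) in 6 comparisons, as points with bars of ± 1 SE from edgeR. DCN, LUM and OMD have no value in the ampulla, where they were at 0 on both sides. No member was called in any panel, and the OGN and ASPN values in the ampulla rest on 100 and 19 counts.

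The ovulatory side was compared with the opposite side at 3 sites in the same heifers, and no member was called at any of them by edgeR or by DESeq2's Wald test. In the upper horn 6 of 7 members had a positive log2 difference, ipsilateral minus contralateral, and in the mid horn also 6 of 7. The members' medians were 0.42 and 0.26 in the upper and mid horn, against -0.04 and -0.02 over all rows. Without the 3 libraries that stood apart, the positive values were 7 of 7 in the upper horn and 5 of 7 in the mid horn, with medians of 0.58 and 0.37. OGN moved from 0.20 to 0.58 in the upper horn and from 0.26 to 0.06 in the mid horn without them, PRELP from 0.26 to 0.57 in the mid horn and OMD from 0.24 to 0.42 in the upper horn. In the upper horn, 2 members had an unadjusted p under 0.05 (adjusted p 0.706 to 0.972, edgeR), where 6.89% of all rows had one and 0.0058% were called. LUM stood at 2.84, 1.26, 3.03 and 2.54 CPM on the ipsilateral side in heifers 10872, 10882, 11033 and 11070, against 1.496, 1.59, 0.290 and 0.590 CPM on the contralateral side, a log2 difference of 1.26 ± 0.50. The 0.290 CPM came from the contralateral library of heifer 11033, which stood apart in its number of rows, and the LUM difference was 0.999 without the 3 libraries that stood apart. DCN, with its upper-horn values given above, differed by 0.66 ± 0.27. Both were higher on the ipsilateral side in 3 of 4 heifers. In heifers 10872, 10882, 11033 and 11070 smooth muscle markers summed to 603, 3811, 4637 and 958.5 CPM in the ipsilateral upper horn. On the contralateral side they summed to 1518, 628.5, 539 and 237 CPM, so heifer 10872 went the opposite way. The part of smooth muscle markers in the LUM and DCN values was not tested.

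In the mid horn FMOD alone had an unadjusted p under 0.05, with a log2 difference of 0.66 ± 0.29 and an adjusted p of 1.0. It stood at 83.3, 159, 203, 128 and 64.3 CPM on the ipsilateral side in heifers 10872, 10882, 11033, 11070 and 11110, against 79.4, 86.1, 59.2, 77.1 and 75.9 CPM on the contralateral side. The side difference was widest in heifer 11033 and small in 10872 and opposite in 11110. Over all rows 0 were called here by edgeR, with 513, or 2.98%, at an unadjusted p under 0.05, and 19 by DESeq2's Wald test. The test of whether the side difference itself differed between the upper and mid horn called 0 members and 0 rows by edgeR, with 0 members and 253 rows at an unadjusted p under 0.05, and DESeq2's Wald test called 0 members and 1 row. In 1 joint test of the 5 uterine groups, 0 members were called and 1, FMOD, had an unadjusted p under 0.05 (adjusted p = 0.368, edgeR), while 0.0406% of rows were called.

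**Figure D3:**
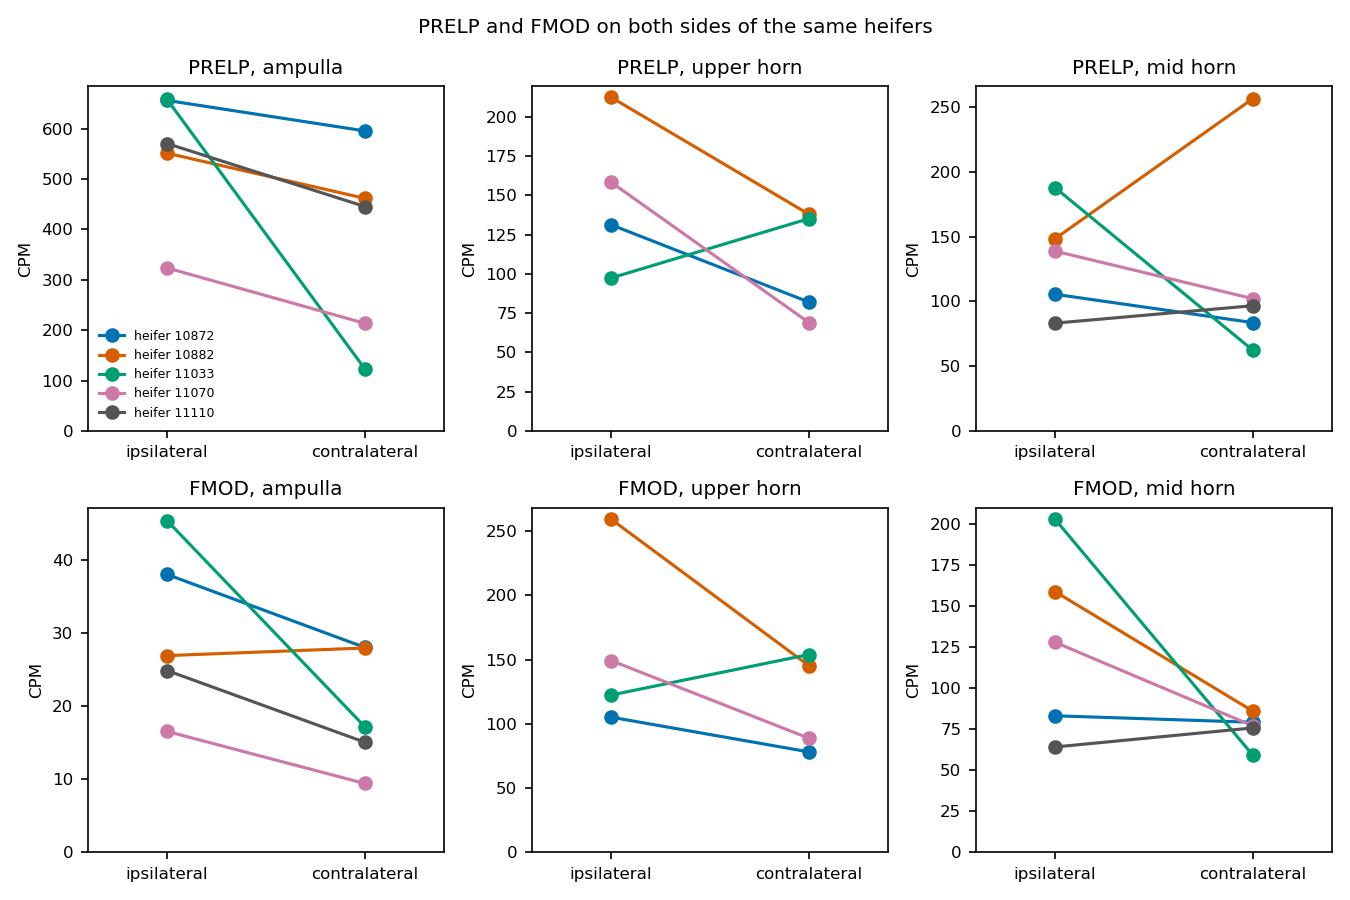
CPM (vertical axis, linear) of PRELP in the upper row and FMOD in the lower row on the ipsilateral and contralateral side of the ampulla, the upper horn and the mid horn. Each line joins both libraries of 1 heifer. In the ampulla PRELP falls toward the contralateral side in all 5 heifers, most in heifer 11033, at 658 CPM ipsilaterally and 123 CPM contralaterally.

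In the ampulla 4 members could be compared between sides, and 0 were called (adjusted p 0.667 to 0.732, edgeR), against 0.0174% of all rows. Of the 4, 1 had an unadjusted p under 0.05, FMOD, as had 7.25% of all rows. PRELP was higher on the ipsilateral side in 5 of 5 heifers, at 552 ± 136 CPM against 368 ± 194 CPM on the contralateral side (SD, n = 5 each). Such a 5 of 5 pattern was found in 3.91% of all tested rows. The log2 difference of PRELP was 0.63 ± 0.32. It came to 0.37 without the contralateral library of heifer 11033 and to 0.17 without those of both 11033 and 11070, exclusions chosen after these values were seen. FMOD was higher on the ipsilateral side in 4 of 5 heifers, at 30.3 ± 11.4 CPM against 19.5 ± 8.22 CPM, with a log2 difference of 0.64 ± 0.29 that came to 0.53 and 0.32 without the same libraries. In those 2 libraries pericyte markers were also low, at 55.2 CPM in heifer 11033 and 149 CPM in 11070, against 299 and 342 CPM in the ipsilateral ampulla of the same heifers. Heifer 11110 had a pericyte sum of 142 CPM with 570 CPM of PRELP on the ipsilateral side, and 165 CPM with 445 CPM of PRELP on the contralateral side. In the ampulla the pericyte markers RGS5 and KCNJ8 were near or at 0, with means of 0.265 and 0 CPM. The sum there came mostly from NOTCH3 and CSPG4, with means of 211 and 40.0 CPM, and MCAM averaged 6.55 CPM. The part of the pericyte markers in the side values was not tested.

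Within the endometrium the members did not vary as a block. Over the 24 endometrial libraries, which share heifers and sites, log2(CPM + 1) of FMOD and PRELP correlated with Pearson's r = 0.65 and Spearman's rho = 0.75, and r was 0.80 over the 22 libraries left without those that stood apart. FMOD and OGN had r = 0.63 and rho = 0.55. Once group and heifer means were removed these r values were 0.46 and 0.66. Over the other 19 of 21 pairs r lay between -0.33 and 0.31 before that removal, including OGN with ASPN at 0.07 and DCN with LUM at 0.22, although both of those pairs are close neighbours on the chromosome. After it, r over these 19 pairs lay between -0.37 and 0.52, with DCN and FMOD at 0.52 and OGN and OMD at 0.42. These values are descriptions of 24 libraries from 5 heifers.

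**Figure D4:**
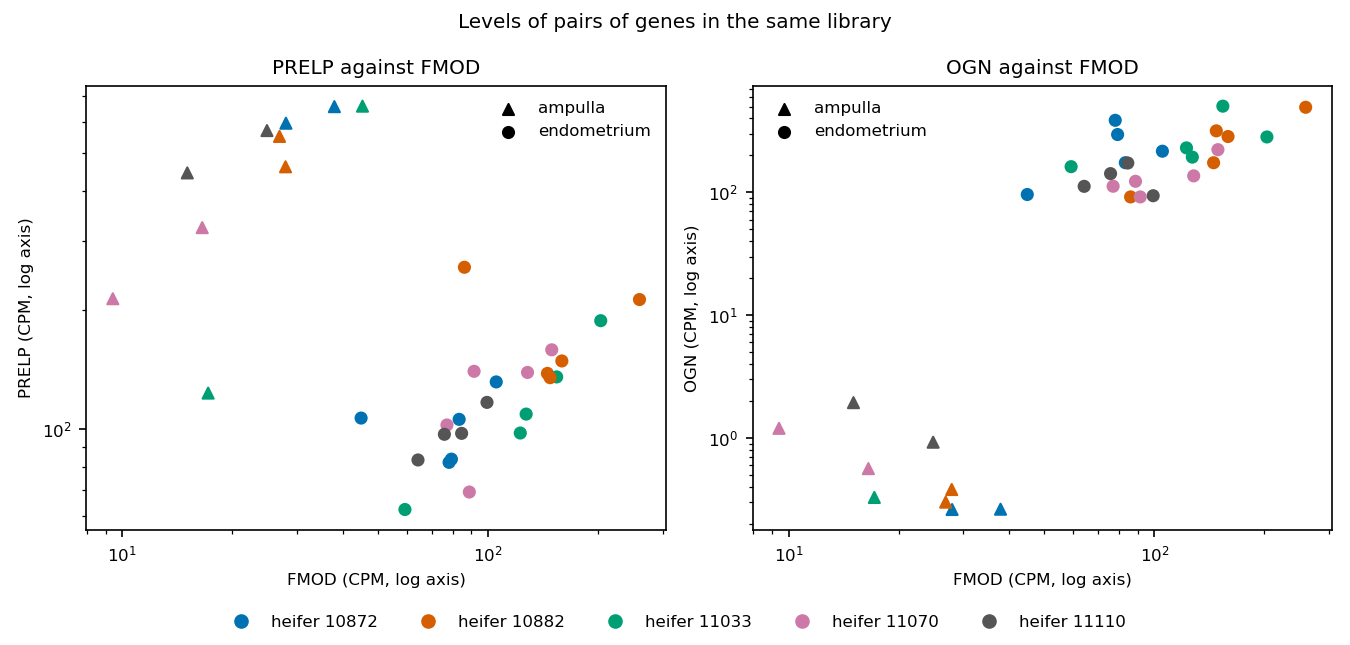
PRELP (left panel) and OGN (right panel) against FMOD, in CPM on log axes, with triangles for ampulla libraries and circles for endometrial libraries, coloured by heifer. In the left panel most ampulla libraries lie above the endometrium at low FMOD, and that of the contralateral ampulla of heifer 11033, at 123 CPM of PRELP, lies among it. In the right panel it lies far below, and the ipsilateral ampulla of heifer 11033, with 0 OGN counts, is not drawn.

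The genes whose endometrial pattern was most like a member's were sought among 4325 genes with a mean of at least 10 CPM, by Pearson's r of log2(CPM + 1) over 24 libraries. That mean was taken over the endometrium alone, which favours a lower level in the ampulla. The ampulla values and p-values of these genes are therefore descriptions only. For FMOD the nearest were IGFBP5 (r = 0.88), COL9A3 (0.87) and EFNB3 (0.85). IGFBP5, an IGF-binding protein, did not share the fall of FMOD in the ampulla, with 369 ± 61.3 CPM there and 336 ± 166 CPM in the endometrium (adjusted p = 0.248, edgeR). Both of the others were lower in the ampulla, COL9A3, a chain of type IX collagen, with a log2 fold change of -5.36 ± 0.39 (adjusted p = 1.96e-13, edgeR) and EFNB3, a membrane-bound ephrin ligand, with -8.57 ± 0.25 (adjusted p = 6.08e-23, edgeR). The nearest to PRELP were VWA5A (0.87), FLNC (0.78) and TAMALIN (0.77). FLNC, an actin-linking filamin, was also higher in the ampulla, at 495 ± 120 CPM against 240 ± 50.4 CPM in the endometrium (log2 fold change 1.02 ± 0.15, adjusted p = 6.86e-07, edgeR), as was VWA5A at 258 ± 96.1 CPM against 94.1 ± 11.8 CPM (1.41 ± 0.15, adjusted p = 1.11e-09, edgeR). TAMALIN was lower in the ampulla, at 36.4 ± 1.97 CPM against 119 ± 34.4 CPM in the endometrium.

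For LUM the nearest genes were APCDD1 (0.89), an inhibitor of WNT signalling, PMEPA1 (0.81), an inhibitor of TGF-beta signalling, and COL4A1 (0.81), a basement membrane collagen. Those nearest to DCN were PDE11A (0.76), ISLR (0.73) and RCN3 (0.69). The r values were lower for OGN, with LHFPL6, COL4A6 and CAVIN2 at 0.68 to 0.69, and for ASPN, with ANO6, ELK3 and CLEC2D at 0.66 to 0.69. OMD, the sparsest of the 7, had no gene above 0.50, and its nearest was LIFR.

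Of the 8 members, 7 sit in chromosomal clusters of the family, and BGN lies beside no other member. RefSeq places LUM and DCN beside KERA and EPYC, OGN and OMD beside ASPN and ECM2, and FMOD and PRELP beside OPTC. In the first cluster KERA, keratocan of the cornea, had 64 counts in the ampulla and 415 in the endometrium, and EPYC had 1 count in all. The second cluster lies beside CENPP, a centromere gene with 31 counts in the ampulla and 97 in the endometrium. In the third, OPTC, opticin of the eye, was sparse and higher in the ampulla, with 91 counts there and 44 in the endometrium (log2 fold change 2.59 ± 0.60, adjusted p = 0.000386, edgeR). OPTC reached the cutoff of the filter on low counts in 4 ampulla and 0 endometrial libraries. Passing through the ampulla alone favours a higher call there, so its p-value is a description only. Within that cluster FMOD was lower and PRELP higher in the ampulla, and OPTC was higher with that limit.

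Lists of related genes were read against all tested rows, of which 35.6% were lower and 29.4% higher in the ampulla, with a median log2 fold change of -0.18. In each list some tested genes passed the filter on low counts only through their endometrial libraries, which favours a lower call in the ampulla. The lists' counts and medians hold those genes too, and are given as descriptions. Of 10 other family members, 8 had a row, 7 were tested, 3 were higher and 4 lower in the ampulla, with a median log2 fold change of -1.05. Of the 7, 2, KERA and TSKU, passed through the endometrium alone, and OPTC, among those higher, passed through the ampulla alone. TSKU, tsukushi, a secreted inhibitor of BMP signalling, averaged 0.0740 ± 0.0546 CPM in the ampulla against 1.57 ± 0.463 CPM in the endometrium (-4.38 ± 0.46, adjusted p = 6.58e-10, edgeR). CHAD, chondroadherin of cartilage, was also lower, at 0.782 ± 0.383 CPM against 5.15 ± 3.05 CPM in the endometrium, while its relative CHADL was higher, at 1.93 ± 0.439 CPM against 0.703 ± 0.335 CPM (1.57 ± 0.26, adjusted p = 3.79e-06, edgeR). The third riser besides OPTC was NYX, named here after its value was seen, at 1.23 ± 0.393 CPM in the ampulla against 0.621 ± 0.0936 CPM in the endometrium.

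The collagens and other fibrils that these proteoglycans bind were lower in the ampulla in 8 of 8 tested genes of a list of 13, with a median log2 fold change of -6.55 (-6.08 with the gene at 0 set at its bound), where all rows had 35.6% lower. Of the 8, 3 passed the filter through the endometrium alone: COL6A2, COL5A1 and ELN. COL6A1, a chain of the beaded filaments of type VI collagen, averaged 0.715 ± 0.344 CPM in the ampulla against 5181 ± 1233 CPM in the endometrium. COL3A1 averaged 9.21 ± 5.46 CPM in the ampulla against 28280 ± 3705 CPM in the endometrium, and COL1A2 58.6 ± 15.0 CPM against 20460 ± 4837 CPM. Their adjusted p-values were 6.08e-23, 3.63e-16 and 8.06e-23 by edgeR. Within the uterus COL5A1 was the only gene of the 6 related lists called, lower in the mid horn than in the body (-2.82 ± 0.66, adjusted p = 0.0408, edgeR). It averaged 1.36 ± 1.35 CPM in the endometrium. In that comparison 4.45% of all rows were called, and 0 were called without heifer 10882.

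Enzymes known to cleave or process these proteins, or to aid such enzymes, were lower in the ampulla in 11 of 11 tested genes of 12, with a median of -5.49, against 35.6% of all rows lower. Passage through the endometrium alone applied to 6 of the 11, which were TLL1, MMP3, MMP13, MMP19, ADAMTS4 and GZMB. MMP2, a gelatinase, averaged 5.52 ± 2.98 CPM in the ampulla against 3425 ± 584 CPM in the endometrium, and its activator MMP14 71.5 ± 28.5 CPM against 3178 ± 1461 CPM. PCOLCE, which enhances the procollagen C-proteinase BMP1, averaged 1.32 ± 0.265 CPM in the ampulla, set against 133 ± 56.9 CPM in the endometrium. The large hyaluronan-linked proteoglycan group had 3 of 3 tested genes of 5 lower, with a median of -4.61 (-3.57 with the gene at 0 set at its bound), and ACAN and HAPLN1 of these passed through the endometrium alone. HAPLN3, a link protein, averaged 1.03 ± 0.131 CPM in the ampulla against 24.9 ± 2.94 CPM in the endometrium. HAPLN1 stood at 0.666 ± 0.351 CPM against 1.86 ± 0.917 CPM, and ACAN, aggrecan, at 0 against 0.203 ± 0.0862 CPM.

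Of 29 genes that build or sulfate glycosaminoglycan chains, 19 were tested, 13 were lower and 2 higher in the ampulla, where all rows had 35.6% lower and 29.4% higher. The list's median log2 fold change was -0.53, against -0.18 over all rows. Among the 19, 4 passed through the endometrium alone: CHSY3, CHST7, B3GNT2 and CHST2. CHST14, the dermatan 4-O-sulfotransferase, averaged 24.96 ± 3.53 CPM in the ampulla against 90.7 ± 10 CPM in the endometrium (-1.86 ± 0.13, adjusted p = 4.04e-14, edgeR). CHSY3, a chondroitin synthase, averaged 0.294 ± 0.141 CPM against 7.53 ± 1.25 CPM in the endometrium, and B3GNT7, which extends keratan sulfate, 2.13 ± 0.609 CPM against 12.6 ± 2.69 CPM. The 2 higher in the ampulla, named after their values were seen, were XYLT1 (0.74 ± 0.22, adjusted p = 0.00373, edgeR), which starts the chains, and FAM20B (0.96 ± 0.29, adjusted p = 0.00510, edgeR), a xylose kinase of the linker.

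Among 20 growth factors and receptors known to bind family members, 9 were tested, 7 lower and 1 higher in the ampulla, with a median of -2.40, against 35.6% lower and 29.4% higher over all rows. TGFBR2 and KDR passed through the endometrium alone. TGFBR2, the ligand-binding TGF-beta receptor, averaged 0.353 ± 0.168 CPM in the ampulla against 3.76 ± 0.617 CPM in the endometrium (-3.36 ± 0.29, adjusted p = 1.40e-11, edgeR). BMP2 averaged 12.8 ± 3.58 CPM against 76.5 ± 19.7 CPM in the endometrium, and CD14, a co-receptor used by biglycan, 5.15 ± 2.51 CPM against 49.8 ± 9.04 CPM. The riser was ITGA2, a collagen-binding integrin chain named after its value was seen, at 22.4 ± 5.36 CPM in the ampulla against 15.4 ± 3.47 CPM in the endometrium.

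**Figure D5:**
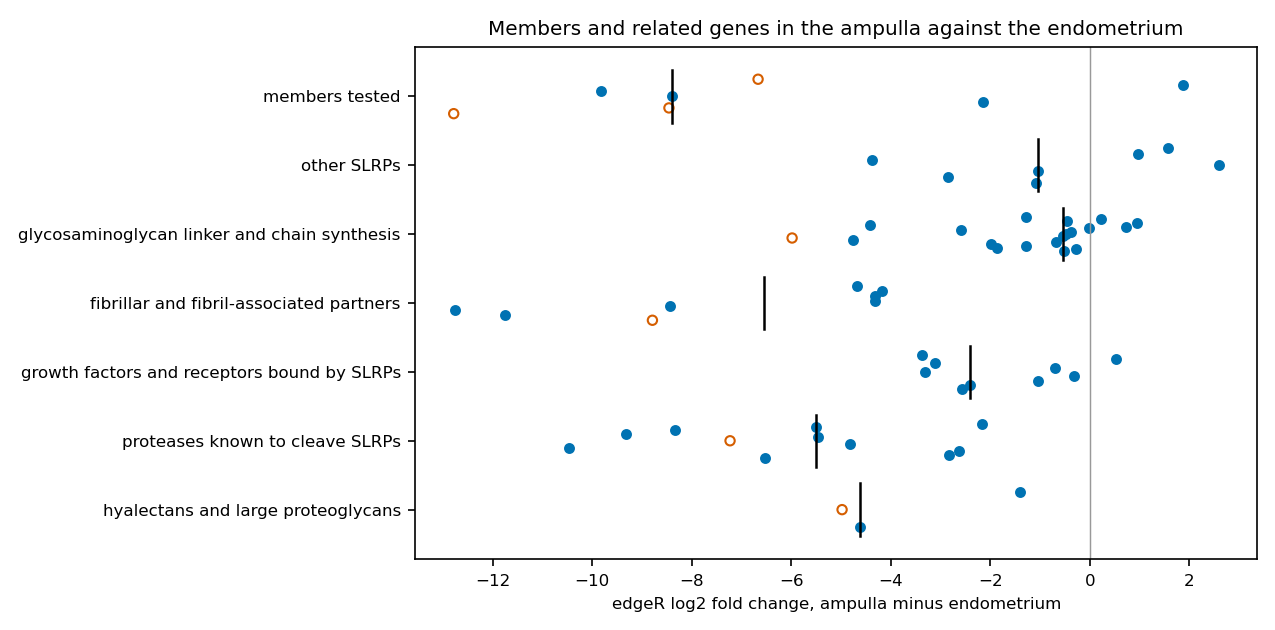
Log2 fold change, ampulla minus endometrium (horizontal axis), of each tested gene (points) in the family and in 6 related lists, with a black bar at each median. Open orange circles are genes with 0 counts in the ampulla, whose fitted value depends on the prior count. PRELP at 1.87 is the only positive value among the members, and the fibril and protease lists, in which 3 of 8 and 6 of 11 genes passed the filter through the endometrium alone, lie wholly below 0.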

How the data were processed

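The authors deposited 1 table of raw counts per RefSeq transcript for 34 libraries. Per the submitters' processing notes, the tools were cutadapt, STAR 2.7.9a, SAMtools and HTSeq. The sources used here give no genome build, annotation, strand setting or counting mode, so overlapping or antisense genes are uncertain. RNA was extracted with a Qiagen RNeasy micro kit and libraries were made with a NEBNext Ultra II Directional kit, per the labels' protocols. Of 38568 rows, 26349 were matched to 21541 genes with a RefSeq table of ARS-UCD2.0, used for names and gene order only. No member sequences are shown.

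From the deposited counts, CPM were computed with library totals scaled by TMM. Tests used edgeR 4.0.16 in R 4.3.3 (filterByExpr, robust quasi-likelihood F test, group and heifer as terms, all 34 libraries, 17241 rows), with Benjamini-Hochberg adjustment over all rows and calls at an adjusted p under 0.05. The script was tested on simulated data. SE is the log2 fold change divided by the square root of F. The endometrium weights upper horn, mid horn and body equally. Folds against 0 use a floor of 3 counts over the 10 ampulla libraries, and floors cover counting error only. Libraries of 1 group are from different heifers.

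The members and gene lists were chosen with earlier results of these data known. All members were named, and from each list up to 3 called genes with the smallest adjusted p. By the labels, the sites of a heifer come from 1 animal, and heifer was therefore a block. Deviations from group means correlated with a median of 0.261 over 99 pairs of libraries of 1 heifer and -0.0635 over 396 pairs of different heifers and groups. No 2 libraries of a group agreed within sampling noise: the lowest chi-square per row over 66 pairs was 44.8. Alternatives were no block, DESeq2 1.42.0 size factors or its Wald test, no filter, summed rows of a gene, the 18S row left out, each heifer or certain libraries left out, and fits per organ.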

Additional observations from a re-analysis of the deposited data

Results flagged for a closer look

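A library was flagged when its gap to the nearest other library was a large share of its group's range. This held for 4 of 47 combinations of a member and a group with any counts. For normally distributed values chance gives about 1 in 20. PRELP stood at 257 CPM in the contralateral mid horn of heifer 10882, against a group median of 96.7 CPM (n = 5), and that library also held 1271 CPM of oviduct epithelial markers. Without it the PRELP log2 difference between sides of the mid horn was 0.56, against 0.26 with it, and neither was called. OGN stood at 494 CPM in the ipsilateral upper horn of heifer 10882, against a median of 227 CPM (n = 4). BGN stood at 0.420 CPM, from 9 counts, in the contralateral mid horn of heifer 11110 and at 0.0369 CPM, from 1 count, in the contralateral upper horn of heifer 11070, with medians of 0 CPM in both groups. Both BGN groups were mostly at 0, where a lone count is always flagged, so they cannot be read against the rate of 1 in 20.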

How the results depend on the processing

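In the ampulla against the endometrium all 7 tested members kept their direction and call under all 15 alternatives. For DCN, LUM, OMD and ASPN, which passed the filter through the endometrium alone, this is a description only. PRELP ranged from 1.57 to 2.07 and FMOD from -2.50 to -1.95 on the log2 scale, and the median of all rows ranged from -0.305 to -0.175, so members are to be read relative to it. In the other comparisons no alternative called a member. Of 46 member tests by DESeq2's Wald test, 3 had no adjusted p.

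Without the heifer block, PRELP in the ampulla against the endometrium stayed at 1.87, FMOD changed sign to -0.0144 in the mid horn against the body and ASPN to -0.0456 between mid-horn sides, and no call changed with the pairing. Every value that changed sign was uncalled in both settings. In the mid horn against the body these were, with DESeq2 size factors in edgeR, LUM at -0.0243, FMOD at -0.0873, OGN at -0.0292, ASPN at -0.0763 and PRELP at -0.0483. By DESeq2's Wald test LUM was at -0.0229, FMOD at -0.0874, OGN at -0.0226, ASPN at -0.0763 and PRELP at -0.0484. Without the 18S row FMOD was at -0.0208 and ASPN at -0.0169, and without the contralateral ampulla libraries of heifers 11033 and 11070, an exclusion chosen after seeing the data, they were at -0.0139 and -0.0203. PRELP there was at -0.0656 without the 3 libraries that stood apart and at -0.0960 without the contralateral mid horn of heifer 10882 alone. Without the same 3 libraries ASPN was at 0.176 between upper-horn sides and -0.129 between mid-horn sides, and without the single library at -0.0643 between mid-horn sides. PRELP in the upper against the mid horn was at -0.00500 with no filter on low counts. The causes were not tested.

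With each heifer left out in turn, DCN ranged from -0.235 to 0.0455 and PRELP from -0.105 to 0.0994 in the upper against the mid horn, and DCN from -0.110 to 0.297 and PRELP from -0.0119 to 0.209 in the upper horn against the body. In the mid horn against the body LUM ranged from -0.172 to 0.257, FMOD from -0.169 to 0.145, OGN from -0.276 to 0.400, ASPN from -0.102 to 0.154 and PRELP from -0.0695 to 0.192. Between upper-horn sides OGN ranged from -0.183 to 0.675, ASPN from -0.293 to 0.0282 and OMD from -0.108 to 0.688, and between mid-horn sides OGN from -0.0355 to 0.641, ASPN from -0.271 to 0.221 and PRELP from -0.0933 to 0.587.

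Counts of called rows, which set the background, moved more. The mid horn against the body had 767, from 0 without heifer 10882 to 2714 by DESeq2's Wald test. The upper horn had 3 against the mid horn (0 to 207) and 4 against the body (2 to 150). The ampulla sides had 3 (0 to 150), the upper-horn sides 1 (0 to 173), the mid-horn sides 0 (0 to 140), the difference between side effects 0 (0 to 69) and the 5 uterine groups together 7 (1 to 1423), each highest with no filter on low counts. BGN, at 33 counts, and OMD, at 301, are limited by depth.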
